A study of Homo sapiens with 10 samples.

Results

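OTX1, OTX2, SIX3, SIX6, RAX, LHX2, FEZF2, EN1, EN2 and GBX2 are transcription factor genes that divide the early brain along its anterior-posterior axis. These 10 genes were taken by symbol from the 31017 rows of the gene count table, and their promoters were looked up among the 21833 bait fragments that had at least 1 interaction in the promoter capture Hi-C (PCHi-C) lists. The study compared human embryonic stem cells (ESCs) of the H9 (WA09) line with neuroectodermal cells (NECs), an early neural progenitor population derived from the same H9 cells and harvested at day 7 of differentiation. Each cell type had 2 biological replicates of RNA sequencing and 2 of PCHi-C, a method that enriches a chromosome conformation library for fragments holding gene promoters, so every comparison set 2 samples against 2 of a single line. The ESC RNA libraries shared 1 sequencing lane and the NEC RNA libraries a second lane, so that lane and cell type cannot be told apart.

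Anterior-posterior identity of the neural plate is set early, by sets of homeobox and zinc finger factors that hold adjoining territories. SIX3, SIX6, RAX, LHX2 and FEZF2 mark the forebrain and the eye field, OTX1 and OTX2 cover the forebrain and midbrain, GBX2 marks the anterior hindbrain, and the opposition of OTX2 and GBX2 positions the midbrain-hindbrain boundary, where EN1 and EN2 are expressed. OTX2 is also active in pluripotent cells before neural induction.

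The NEC libraries had the markers of a neural culture. SOX1, an early neural plate factor, was at 2.60 ± 0.298 CPM (counts scaled to a common library size, SD, n = 2) in ESCs and 123 ± 3.64 CPM in NECs, and POU5F1, the core pluripotency factor, was at 1460 ± 31.1 CPM in ESCs and 71.2 ± 56.9 CPM in NECs. Of lists of 10 markers each, 7 neuroectoderm genes rose and 0 fell, all 10 pluripotency genes fell, and 6 neural crest genes rose and 1 fell. Of the genes tested, 6 of 9 neuron genes rose and 7 of 8 mesendoderm genes fell. Of 6 placode or surface ectoderm genes tested, 2 rose and 2 fell. A rise or fall here is a call in the edgeR test described below. Over all genes tested, 11.4% were called higher and 9.68% lower. The pluripotency markers summed to 415 CPM (NEC replicate 1) and 807 CPM (NEC replicate 2), against 5819.5 and 6358 CPM for ESCs. In bulk RNA, fewer cells of a type and less RNA per cell cannot be told apart. Total counts ran from 19234087 to 25356382 per RNA library, and the interaction lists of single PCHi-C replicates held 81168 to 100305 interactions.

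The promoters of the 10 genes differed in base composition. Those of 4 genes are shown because the expression and contact results turn on them, each as the 200 bases just upstream of the canonical transcript start in the GRCh37 genome, read 5′ to 3′ on the coding strand, with capitals marking the CCAAT box (CCAAT on either strand) and the GC box (GGGCGG on either strand), which can overlap or abut.
GBX2, chr2:237077030-237077229, minus strand: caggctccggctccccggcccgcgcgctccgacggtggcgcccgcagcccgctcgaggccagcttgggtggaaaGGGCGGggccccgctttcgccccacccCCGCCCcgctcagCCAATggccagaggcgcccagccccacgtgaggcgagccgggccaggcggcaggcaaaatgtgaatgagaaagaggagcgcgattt
EN2, chr7:155250624-155250823, plus strand: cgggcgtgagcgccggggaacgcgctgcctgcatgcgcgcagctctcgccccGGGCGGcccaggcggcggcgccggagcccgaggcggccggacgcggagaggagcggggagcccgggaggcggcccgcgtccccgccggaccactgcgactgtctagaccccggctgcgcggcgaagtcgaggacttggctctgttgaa
OTX2, chr14:57277198-57277397, minus strand: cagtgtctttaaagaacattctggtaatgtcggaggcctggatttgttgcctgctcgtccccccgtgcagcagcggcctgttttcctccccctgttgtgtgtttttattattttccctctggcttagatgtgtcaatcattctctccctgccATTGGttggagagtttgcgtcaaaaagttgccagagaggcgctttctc
SIX6, chr14:60975664-60975863, plus strand: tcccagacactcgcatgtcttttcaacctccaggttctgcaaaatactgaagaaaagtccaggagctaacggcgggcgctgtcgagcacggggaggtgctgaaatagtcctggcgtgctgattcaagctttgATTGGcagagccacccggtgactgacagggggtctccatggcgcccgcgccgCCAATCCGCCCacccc
The EN2 window was the richest in CpG, with 33 CpG dinucleotides and 78.0% GC, followed by OTX1 with 26 and GBX2 with 23, while OTX2 had 6 CpG and 49.5% GC, and the median over the promoters of 19862 protein-coding genes was 15 CpG and 64.5% GC. The CCAAT box was found in 5 of the 10 windows, against 30.4% of all promoters, and the GC box in 6 of 10, against 56.5% of all. No window held TAATTA, a core shared by many homeodomain sites (2.1% of all promoters), TAATCC, the core preferred by OTX proteins (4.0%), or TATAAA (7.7%), each searched on both strands. These matches are descriptions of letters in the reference, not of binding.

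Among the 10 genes, 8 were called higher in NECs and 0 were called lower. A gene was called where edgeR's quasi-likelihood test gave a Benjamini-Hochberg adjusted p under 0.05 over the 17564 genes tested and a log2 change over 1.5 in size. Of all genes tested, 11.4% were called higher and 9.68% lower, with a median log2 change of 0.01. SIX3, RAX, FEZF2, EN1 and EN2 passed the filter on low counts only through their NEC counts. A fall of these genes could not have been called, so the member counts cannot be read against those shares. The median log2 change was 3.92 over the 4 forebrain and eye field members tested, 1.83 over OTX1 and OTX2, and 6.77 over EN1, EN2 and GBX2, the last a fitted value of EN1, which had 1 ESC read. SIX6 had too few counts to enter the test, and OTX2 passed the test on p but not on size.

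OTX2, which specifies anterior neural fate and was the only member abundant in ESCs, had 3105 and 2872 counts in ESCs, against 1434 and 1093 counts in NECs. Its mean level was 140 ± 34.2 CPM in ESCs and 55.7 ± 16.1 CPM in NECs, and the groups did not overlap. The 2.52-fold lower level in NECs (log2 change -1.33, SE 0.23, edgeR adjusted p = 0.0032) stayed short of the size threshold, which it passed when ESC replicate 2 (-1.57) or NEC replicate 1 (-1.66) was left out. OTX1, its paralogue in the forebrain and midbrain, had 12 and 14 counts in ESCs against 543 and 327 in NECs. It rose 32.0-fold (log2 change 5.00, SE 0.42, edgeR adjusted p = 1.9e-04).

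GBX2, the anterior hindbrain factor, showed the opposite order to OTX2. It had 23 and 62 counts in ESCs against 1028 and 2783 in NECs, or 1.86 ± 0.912 CPM against 80.5 ± 45.7 CPM. It rose 41.8-fold (log2 change 5.38, SE 0.52, edgeR adjusted p = 3.2e-04), and every NEC value lay above every ESC value. The log2 change was 4.64 without NEC replicate 2 and 6.03 without ESC replicate 2. The library kit did not mark strand, and the antisense transcript AC079135.1, which starts in the same bait and overlaps GBX2, went from 8 and 14 to 111 and 282 counts, so reads in the overlap cannot be assigned to either.

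EN1 and EN2, the engrailed factors of the midbrain-hindbrain boundary, went from at most 1 count per ESC library to low levels in NECs. Their NEC means were 3.12 CPM (EN1) and 3.41 CPM (EN2). EN1 had 0 and 1 counts in ESCs and 111 and 26 in NECs, a ratio of 130 (95% interval from counting error alone, 22.9 to 5161; edgeR adjusted p = 0.0047). EN2 had no count in ESCs and 124 and 25 in NECs, which was at least 47.0-fold higher taking 3 counts over both ESC libraries as the floor (edgeR adjusted p = 0.0086). In both genes NEC replicate 1 held most of the reads. Without it the EN1 ratio was 45.9 and the EN2 limit 14.7-fold, while without NEC replicate 2 they were 226 and 84.3-fold. Without ESC replicate 1 or 2 the EN2 limit was 26.7-fold or 20.4-fold, since the floor then rests on 1 library, and the EN1 ratio without ESC replicate 1 was 73.6. Without ESC replicate 2, which held the EN1 read, EN1 was at least 18.7-fold higher.

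Among the forebrain and eye field genes, 4 of 4 tested were called higher, all at low levels. Of these, SIX3, FEZF2 and RAX entered the test only through their NEC counts, so their direction was fixed by the filter. LHX2, a LIM homeobox factor of the forebrain and eye, had 26 and 17 counts in ESCs and 163 and 308 in NECs and rose 9.96-fold (log2 change 3.32, SE 0.40, edgeR adjusted p = 7.7e-04). SIX3, a forebrain homeobox factor, had 4 and 9 counts in ESCs and 92 and 45 in NECs and rose 10.1-fold (log2 change 3.34, SE 0.58, edgeR adjusted p = 0.0030). Their groups did not overlap in any library. Without NEC replicate 1 the SIX3 rise was 6.09-fold.

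FEZF2, a zinc finger factor of the forebrain, had no count in ESCs and 228 and 75 in NECs, at least 95.6-fold higher against the same floor (edgeR adjusted p = 0.0024). This limit was 44.2-fold without NEC replicate 1, 155-fold without NEC replicate 2, and 54.2-fold or 41.4-fold without ESC replicate 1 or 2. RAX, an eye field homeobox factor, had 8 and 0 counts in ESCs and 170 and 21 in NECs. Its 22.5-fold rise (log2 change 4.49, SE 1.38, edgeR adjusted p = 0.029) was no longer called when ESC replicate 2 (3.34) or NEC replicate 1 (2.15) was left out, nor with DESeq2, and it was 5.36 without NEC replicate 2. Without ESC replicate 1, which held all 8 ESC reads, RAX was at least 34.2-fold higher. SIX6, the SIX3 paralogue of the eye and pituitary, had 0 and 1 counts in ESCs and 17 and 9 in NECs, a ratio of 24.6 with a counting interval of 4.04 to 1009. SIX6 lies inside the longer gene C14orf39 on the other strand, which had 80 and 110 counts in ESCs and 66 and 36 in NECs, so without strand part of the SIX6 reads may belong to it.

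**Figure D1:**
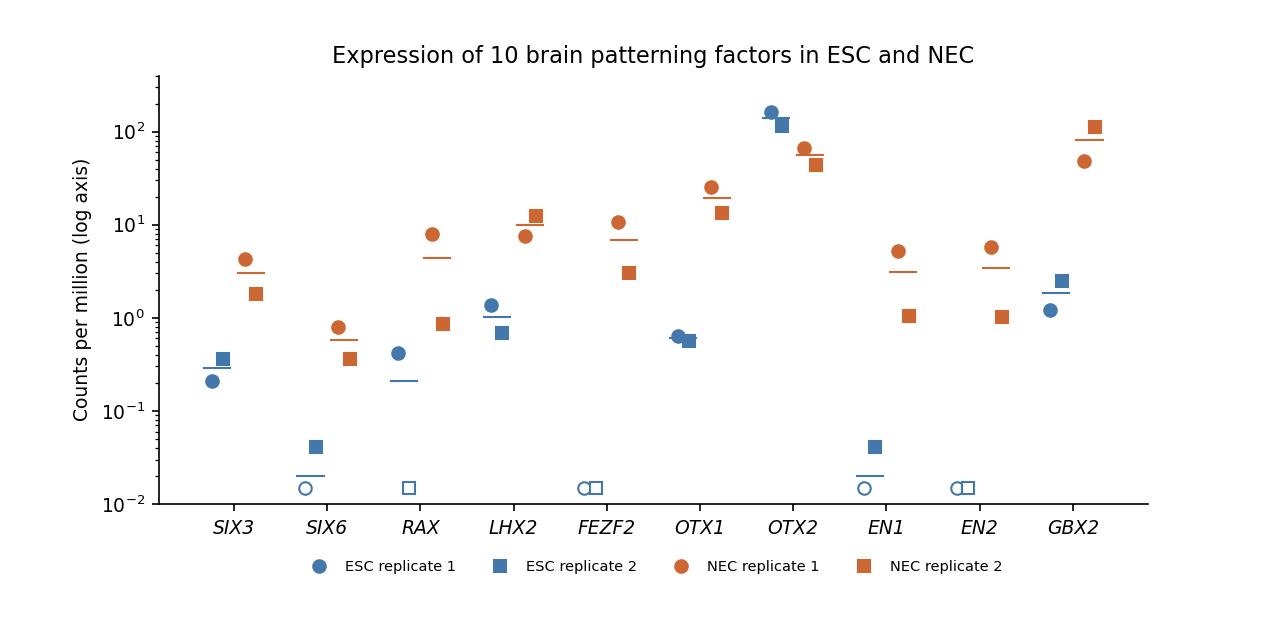
CPM, the counts scaled to a common library size (log axis), of the 10 genes in each RNA library, with ESCs in blue and NECs in orange, circles for replicate 1, squares for replicate 2 and lines for the mean of each cell type. Open symbols at the bottom are libraries with no count; OTX2 is the only gene whose NEC values (67.1 and 44.3 CPM) lie below its ESC values (165 and 116 CPM).

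Levels can be set side by side between genes only per length, here as CPM per kb of union exon. In NECs GBX2 stood first at 34.5 ± 19.6 CPM per kb (SD, n = 2), with OTX2 next at 16.4 ± 4.75. The replicate values were 20.6 and 48.4 for GBX2 against 19.7 and 13.0 for OTX2, so the closest values of the neighbours nearly met. LHX2 (4.03 ± 1.38), OTX1 (4.0 ± 1.78, or 6.76 per kb of its longest transcript) and FEZF2 (3.08 ± 2.42) followed with overlapping replicates, then RAX (1.16 ± 1.33), SIX3 (1.13 ± 0.647), EN1 (1.09 ± 1.03) and EN2 (1.00 ± 0.998), which overlapped each other, and SIX6 at 0.224 ± 0.118. FEZF2 also overlapped RAX, SIX3, EN1 and EN2, and SIX6 overlapped RAX and EN2. In ESCs OTX2 stood at 41.3 ± 10.1 CPM per kb and the next gene, GBX2, at 0.799 ± 0.391.

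The 2 NEC libraries both held reads of all 10 patterning factors but differed in their levels. RAX was 9.35-fold higher in NEC replicate 1 (95% exact counting interval 5.92 to 15.5), EN2 5.73-fold (3.70 to 9.19), EN1 4.93-fold (3.19 to 7.87), FEZF2 3.51-fold (2.69 to 4.62) and SIX3 2.36-fold (1.64 to 3.45). GBX2 went the other way, 2.34-fold higher in NEC replicate 2 (2.18 to 2.52), as did LHX2 at 1.64-fold (1.35 to 1.99). In all, 8 of the 10 genes were higher in NEC replicate 1, and 6 of the 9 tested members were 2-fold or more apart, against 6.13% of all genes tested. That share covers tested genes of every level and was not matched to the counts of the members. The share of all genes higher in NEC replicate 1 was not computed, so the direction count has no share beside it.

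Other gene lists were also compared between the NEC libraries, by direction and by summed CPM. Among 16 other forebrain and eye field genes 14 were higher in NEC replicate 1 (261 CPM summed against 199 CPM in NEC replicate 2). Among 16 other midbrain and isthmus genes 13 were (399 against 359 CPM), and among 10 neural crest markers 9 (283 against 155 CPM). All 10 pluripotency markers were higher in NEC replicate 2. Of 18 hindbrain and spinal cord genes, 11 had the higher level in NEC replicate 1 and 6 the lower (159 against 148 CPM). These direction counts also stand without a share over all genes. The part of these differences between the NEC libraries in the spread of the member genes was not tested.

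**Figure D2:**
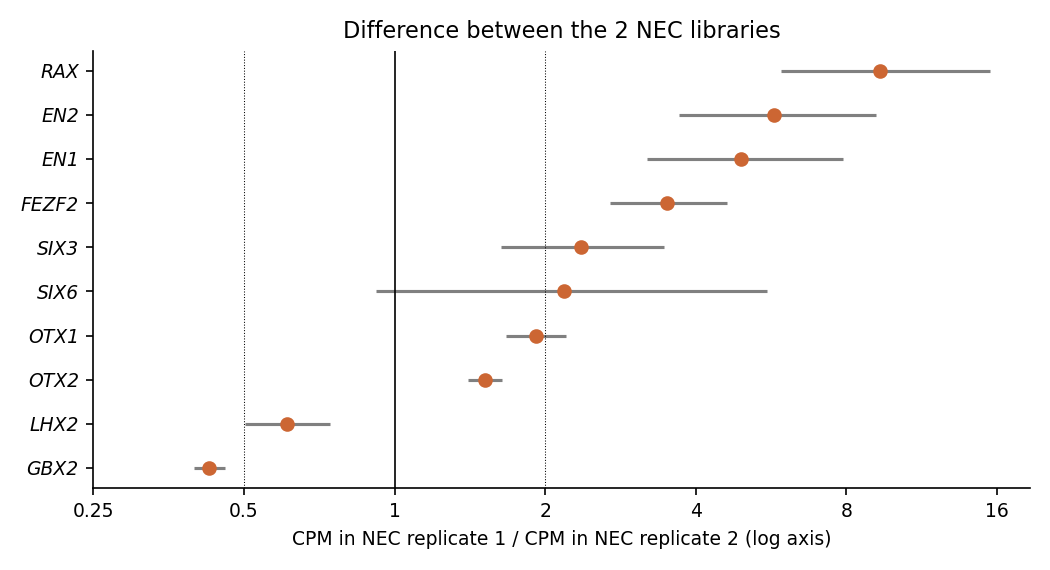
Ratio of the CPM in NEC replicate 1 to that in NEC replicate 2 (log axis) for each of the 10 genes, with bars for the 95% exact interval from counting error and dotted lines at 2-fold. RAX lies farthest to the right at 9.35-fold, and LHX2 and GBX2 are the 2 genes on the left of equality.

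The wider axis was represented in NECs from the forebrain to the hindbrain. Of the 12 other forebrain and eye field genes tested, 8 were called higher and 1 lower, with a median log2 change of 5.80. EMX2, a dorsal forebrain factor, had no count in ESCs and 243 and 123 in NECs (at least 116-fold higher against 3 counts over both ESC libraries), and PAX6, a paired-box factor of the forebrain and eye, rose 50.9-fold (log2 change 5.67, SE 0.33). HESX1, an anterior neural repressor also active in ESCs, had a log2 change of -1.78 (SE 0.42), from 134 and 83 counts to 37 and 32, and was no longer called without ESC replicate 1 (-1.17). The EMX2 limit ranged from 50.02-fold (without ESC replicate 2) to 165-fold (without NEC replicate 2) with a library left out, and was 65.5-fold without ESC replicate 1 and 72.5-fold without NEC replicate 1.

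Of the 13 midbrain and isthmus genes tested beside the members, 7 were called higher and 3 lower, with a median log2 change of 2.82. WNT1, a signal from the midbrain side of the boundary, had no count in ESCs and 171 and 32 in NECs (at least 64.1-fold higher), and PAX2, a paired-box factor of the boundary, had none in ESCs and 130 and 69 in NECs (at least 62.8-fold higher). FGF8, the signal of the isthmus, fell by a log2 change of -2.65 (SE 0.30), from 250 and 488 counts to 43 and 79, and FGF17, a related ligand, fell by a log2 change of -3.28 (SE 0.70), or from -2.12 (without ESC replicate 2) to -4.23 (without NEC replicate 1) with a library left out (-3.91 without ESC replicate 1, -2.68 without NEC replicate 2). The WNT1 limit was 18.8-fold without NEC replicate 1, 116-fold without NEC replicate 2, and 36.3-fold or 27.7-fold without ESC replicate 1 or 2, and the PAX2 limit 40.6, 88.4, 35.6 and 27.2-fold in the same order.

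Of the 18 hindbrain and spinal cord genes, 8 had too few counts to test, and 7 had at most 3 counts in each NEC library. Among the 10 tested, 8 were called higher and 1 lower, with a median log2 change of 6.50. Here and in the preceding lists, genes with almost no ESC reads entered the test only through their NEC counts. The shares among tested genes therefore do not stand for whole lists. These medians include fitted values of genes with no ESC read. HOXA2, an anterior hindbrain HOX gene, had 0 and 1 counts in ESCs and 732 and 674 in NECs, and HOXB2 had 2 in each ESC library and 542 and 293 in NECs. HOXB3 had no count in ESCs and 230 and 124 in NECs (at least 112-fold higher, or 73.0-fold without NEC replicate 1 and 63.4-fold or 48.4-fold without ESC replicate 1 or 2), while CDX4, a caudal factor, fell by a log2 change of -4.64 (SE 0.47). The calls in this and the preceding lists are from the same edgeR fit, in which 11.4% of all genes tested were called higher and 9.68% lower.

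In the PCHi-C data each promoter is represented by a bait, the HindIII restriction fragment that was captured, and its contacts are promoter-interacting regions (PIRs), other HindIII fragments with a CHiCAGO score of at least 12 (a score of confidence that the pair was read more often than its distance predicts). The start given by the count table lay in a bait for 8 of the 10 genes. For LHX2 and SIX6 it fell in a fragment that was not a bait, and the bait holding the canonical transcript start was used for both. The SIX6 starts lie on either side of the HindIII site AAGCTT contained in the window shown above. Each cell type had 2 replicate lists and a list from the merged replicates, and merged scores have no replicate spread.

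The promoters ranged from 0 to 34 merged PIRs. The merged lists gave EN2 34 PIRs for ESCs and 28 for NECs, EN1 24 and 25, and LHX2 33 and 21, against a median of 3 in each cell type over baits with any PIR. At the other end FEZF2 had no PIR in either merged list and RAX 1 in each, and none of their PIRs was called in more than 1 replicate. OTX1 (2 and 5), OTX2 (6 and 5), SIX3 (6 and 6), SIX6 (15 and 6) and GBX2 (4 and 12) lay between. No PIR of the 10 promoters lay on another chromosome, and no member bait contacted another member bait.

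At 2 promoters the replicate numbers of the cell types did not overlap. GBX2 had 1 PIR in each ESC list and 7 in each NEC list of single replicates, while SIX6 had 10 and 14 PIRs in ESCs against 3 and 6 in NECs. Over all 21833 baits, 13.1% had more PIRs in both NEC replicates than in either ESC replicate, and 12.8% had fewer, so 1 promoter of 10 in each direction was near the share over all baits and is not a result about these genes. The replicates of the other 8 promoters overlapped, EN1 for example having 27 and 13 (ESC) against 39 and 17 (NEC). With 2 replicates against 2, an exact permutation test of a single promoter cannot go below a two-sided p of 0.333, so none was given.

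**Figure D3:**
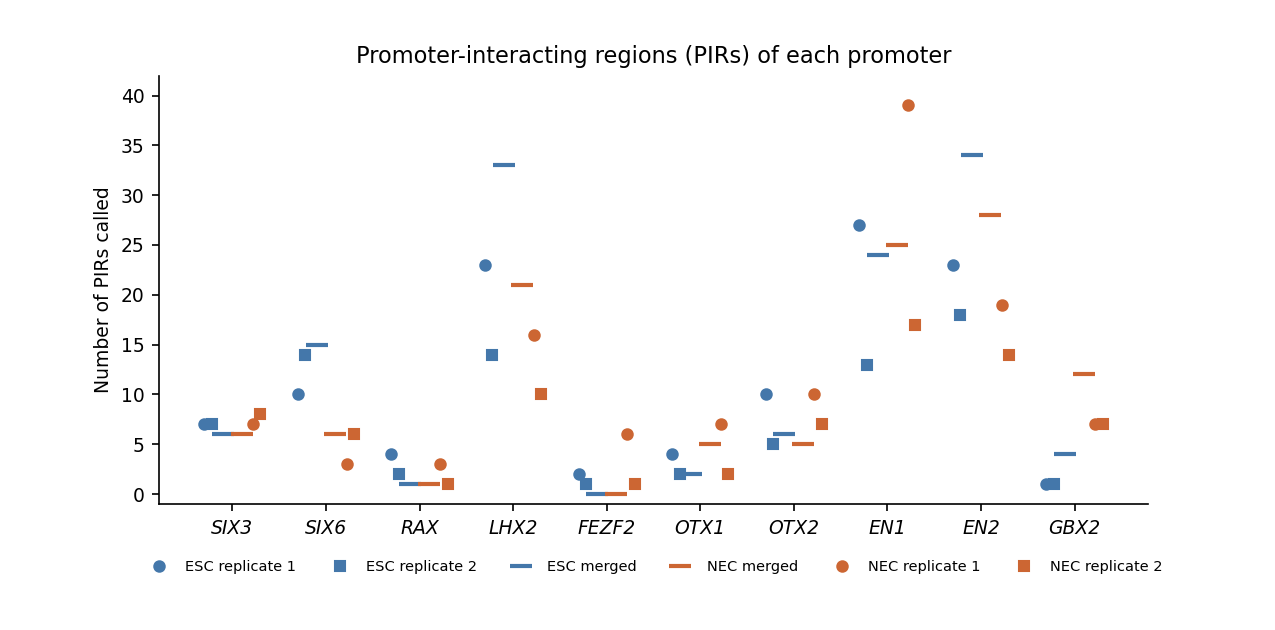
Number of PIRs called for each promoter bait in the replicate lists (circles and squares) and the merged lists (bars), with ESCs in blue and NECs in orange. GBX2 (1 and 1 against 7 and 7) and SIX6 (10 and 14 against 3 and 6) are the 2 promoters whose replicates do not overlap between cell types.

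Across the 10 promoters, 245 PIRs were called in at least 1 replicate. Of these, 13 (5.31%) were called in all 4 replicates, 16 (6.53%) in both ESC replicates with no call in any NEC list, and 3 (1.22%) in both NEC replicates with no call in any ESC list. Over all 274669 such pairs the shares were 2.85%, 2.08% and 2.08%. Neighbouring fragments of 1 promoter are not independent, and 6 of the 13 PIRs called in all replicates belonged to EN2 and 7 of the 16 ESC-only PIRs to SIX6.

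EN2, whose gene starts at chr7:155250824 on the plus strand in the bait chr7:155247684-155262051, had the farthest-reaching contacts of the 10 promoters in the merged lists. In ESCs a block of 13 merged PIRs lay 1521 to 1627 kb downstream around MNX1, a motor neuron and pancreatic homeobox gene, with scores up to 39.9, at the fragment chr7:156797190-156805780 that holds the MNX1 start. ESC replicates 1 and 2 called 14 and 8 PIRs in this block, with top scores of 36.4 and 35.1, and NEC replicates 1 and 2 called 3 and 4, with top scores of 13.4 and 21.0. In merged NECs 2 PIRs of the block remained listed, at 16.4 for the MNX1 start fragment and 15.6 for its neighbour chr7:156791782-156797189 in the MNX1 introns. The highest ESC-only PIR was chr7:156808417-156810927, intergenic and 1555 kb away, with a merged score of 39.6 and replicate scores of 33.0 and 35.1. A further ESC-only contact lay 2222 kb away over an exon of PTPRN2 (23.6).

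Read from the other side, the MNX1 bait called the EN2 fragment at 39.7 in merged ESCs and 19.6 in merged NECs, but both directions share reads and are not independent. MNX1 itself was nearly silent in both cell types, with 3 and 2 counts in ESCs and 10 and 2 in NECs. EN2, in turn, had no count in ESCs, where these contacts scored highest.

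Of the EN2 PIRs within 1 Mb, 16 were in both merged lists, 10 in the merged NEC list alone and 3 in the merged ESC list alone. Upstream, 3 neighbouring intergenic fragments at 81.7 to 87.6 kb (chr7:155165728-155168807, chr7:155169027-155172426 and chr7:155172427-155173834) were called in all 4 replicates, with merged scores of 39.99 to 27.4 in ESCs and 41.5 to 31.3 in NECs. Downstream, the fragment chr7:155298598-155301715 in CNPY1, an exon-bearing stretch 45.3 kb away, was called in all 4 replicates and had the highest NEC score, 43.0 against 30.7 in ESCs. Over CNPY1, a gene that neighbours EN2 and is named for FGF signalling at this boundary, 8 PIRs were listed in merged ESCs and 12 in merged NECs, and ESC replicates called 1 and 1 of them against 8 and 5 in NEC replicates. CNPY1 had no count in ESCs and 33 and 5 in NECs, too few for the test.

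Of the 18 EN2 PIRs in both merged lists, 12 had the higher score in NECs. Baits that hold the starts of other genes and were themselves EN2 PIRs included those of MNX1, AC008060.5 and BLACE. AC008060.5 scored 16.4 in merged ESCs and 23.2 in merged NECs and had no count in any library. BLACE scored 16.9 in merged ESCs and 14.7 in merged NECs and had 3, 1, 0 and 1 counts in the 4 libraries. The bait of RBM33, an RNA-binding protein gene, called the EN2 fragment at 40.7 in ESCs and 32.8 in NECs and in all 4 replicates, while the EN2 bait listed no PIR at the RBM33 bait. AC008060.8, which starts in the EN2 bait, had 1 count in all, in NEC replicate 1.

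EN1, starting at chr2:119605254 on the minus strand in the bait chr2:119602892-119614586, had nearly all its contacts in an intergenic interval downstream. Its highest PIR in NECs was chr2:118979236-118981025, 629 kb away, at 40.3 against 28.6 in ESCs, and its highest in ESCs was chr2:119127730-119130569, 479.6 kb away, at 32.6 against 27.9 in NECs. These 2 and the fragments chr2:118981026-118984003 and chr2:119133586-119140870 were called in all 4 replicates, and all 4 are intergenic. NEC-only and ESC-only calls were 1 each, both at low score (13.7 at chr2:119020326-119026274 and 13.6 at chr2:118933818-118944401). The PIR numbers called from the EN1 bait differed little between the merged lists while EN1 expression rose. Read from the other side, the INSIG2 bait called the EN1 fragment in NEC replicates 1 and 2 (16.95 and 13.59) and merged NECs (15.07). No ESC list held that call, and the AC009303.1 bait called the EN1 fragment in ESC replicate 2 alone (13.43). AC009303.1, the 1 gene starting in a bait among its merged PIRs (12.5 in ESCs), had 1 and 2 counts in ESCs and 3 in each NEC library.

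GBX2, starting at chr2:237077012 on the minus strand in the bait chr2:237072120-237077830, had most of the PIRs called from its own bait in NECs. A block of 12 merged PIRs lay 320 to 408 kb downstream, between 236665731 and 236756632 within the introns and exons of AGAP1, a GTPase-activating protein gene. NEC replicates 1 and 2 called 7 and 6 PIRs of this block, with top scores of 20.02 and 18.7, and no ESC replicate called any. The highest, chr2:236684094-236690555, scored 21.0 in merged NECs and 12.8 in merged ESCs. A pair of PIRs was called in both NEC replicates and in no ESC list, chr2:236690556-236691273 (16.7) and chr2:236698218-236700958 (16.6), both intronic, and the calls of the remaining 10 came from at most 1 replicate.

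AGAP1 was expressed in both cell types at 39.2 ± 5.82 CPM in ESCs and 51.3 ± 1.80 CPM in NECs and was not called. The non-coding gene AC064874.1, which starts in a bait of the block, had no count in any library, and its bait called the GBX2 fragment at 12.5 in merged ESCs and 23.3 in merged NECs. In ESCs 3 weak PIRs at 200 to 226 kb (12.1 to 12.2) were in the merged list and in neither replicate list.

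**Figure D4:**
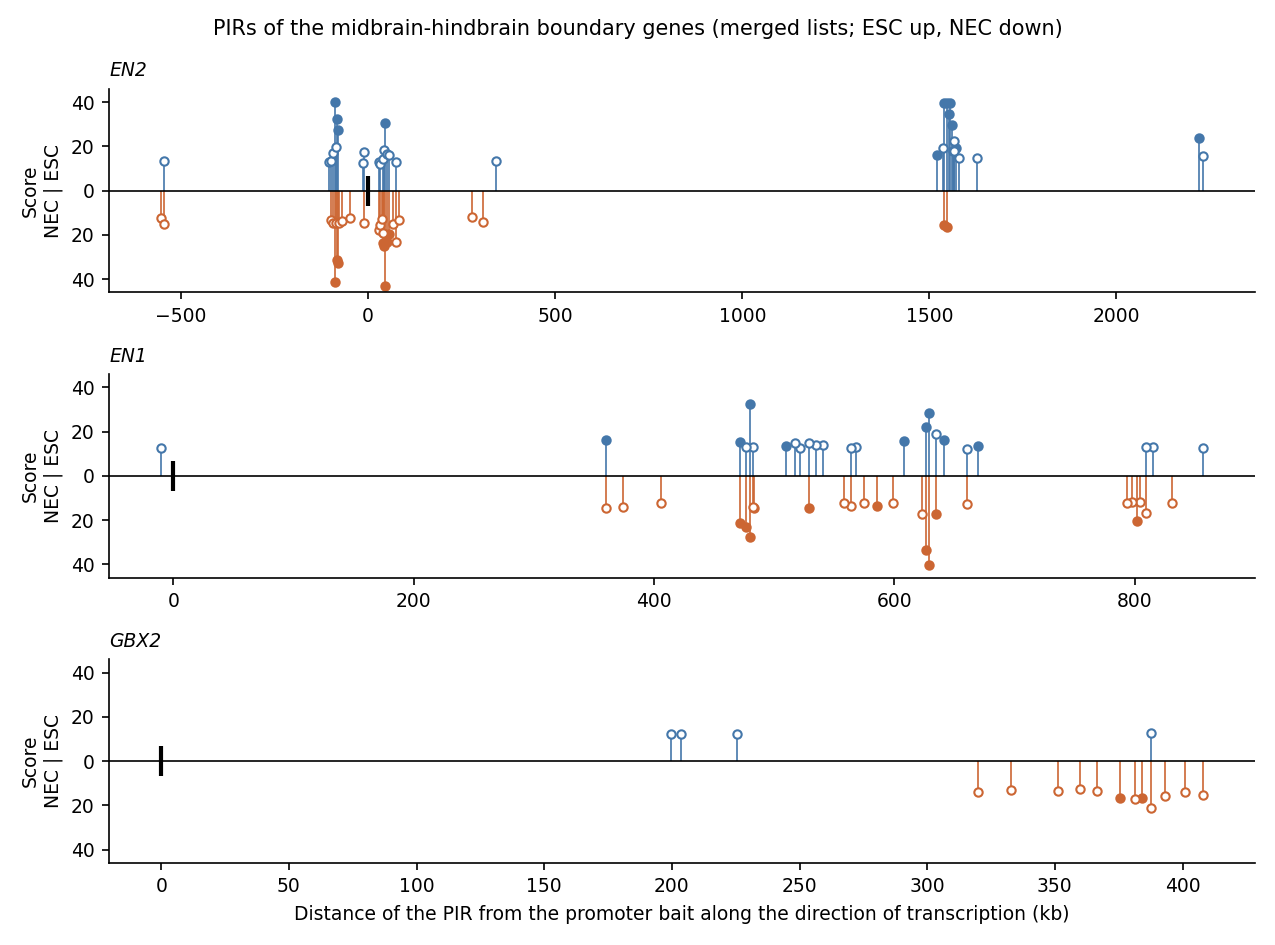
CHiCAGO scores of the merged PIRs of EN2, EN1 and GBX2 against distance from the bait along the direction of transcription (kb), with ESC scores upward in blue, NEC scores downward in orange and a black mark for the bait. Filled circles were also called in both replicates of that cell type; the EN2 block at 1521 to 1627 kb has 13 ESC and 2 NEC PIRs, and the GBX2 block beyond 300 kb has 1 ESC and 12 NEC PIRs.

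CTCF is a DNA-binding protein found at the anchors of many chromatin loops, and its core was searched on both strands as CCA, 2 free bases, AG, 2 free bases and GGC. The highest-scoring PIRs of these 3 promoters that held a match are shown as 60 bases around it, in the direction of the motif, with the core in capitals.
EN1 PIR, chr2:118981339-118981398, minus strand: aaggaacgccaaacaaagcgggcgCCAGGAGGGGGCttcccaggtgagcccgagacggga
EN2 PIR, chr7:156797373-156797432, plus strand: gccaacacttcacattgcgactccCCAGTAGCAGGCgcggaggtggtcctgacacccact
GBX2 PIR, chr2:236688220-236688279, plus strand: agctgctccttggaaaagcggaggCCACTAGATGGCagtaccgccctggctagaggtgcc
They lie in chr2:118981026-118984003 (EN1), in the MNX1 start fragment (EN2) and in the highest GBX2 fragment, and among merged PIR fragments of like length (within 25%) 11.5%, 26.4% and 21.0% held the core. Of the 182 PIRs of the 10 promoters in a merged list, 32 held it (17.6%), against a mean of 16.6% for fragments of like length, so the share was close to that of PIRs in general.

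SIX6, read from the bait chr14:60975789-60980502 on the plus strand, had most of its called contacts in ESCs. Of its PIRs, 7 were called in both ESC replicates with no call in any NEC list, and none was called in NECs alone. The fragment chr14:60795297-60802768, 179 kb upstream and intergenic, was called in all 4 replicates at 16.1 in merged ESCs and 18.8 in merged NECs, the latter its highest NEC score. The non-coding CTD-2184C24.2, whose bait was a SIX6 PIR in merged NECs (14.8), had 2, 0, 1 and 3 counts.

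SIX3, starting at chr2:45168902 on the plus strand in the bait chr2:45154700-45181423, had a contact with its paralogue SIX2 that was called in ESCs only. A contact not called in NECs is not shown absent there. The SIX2 start fragment chr2:45234314-45238458, 68.3 kb downstream, scored 19.0 in merged ESCs, 13.9 and 15.6 in the ESC replicates, and was in no NEC list. SIX2 was low in both cell types, with 14 and 18 counts in ESCs and 10 and 16 in NECs, and was not called. No SIX3 PIR was called in all 4 replicates, though 5 were in both merged lists. The intergenic bait chr2:45147796-45150147, 19.1 kb upstream, scored 41.5 in merged ESCs and 24.5 in merged NECs, the highest in each, and had no call in NEC replicate 2.

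A further 3 SIX3 PIRs were baits of other genes up to 947 kb away and were in both merged lists, PREPL and CAMKMT at 20.6 and 14.1, LRPPRC at 17.9 and 12.2, and SRBD1 at 16.7 and 16.1. Each was called in both ESC replicates and in NEC replicate 1 but not in NEC replicate 2. None of these 4 genes was called in the expression test. In the SIX3 bait RP11-89K21.1, an upstream non-coding gene, went from 0 and 1 counts to 59 and 27 and was called higher, and AC012354.5, which overlaps SIX3 on the other strand, had 0 and 0 counts in ESCs and 6 and 4 in NECs.

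LHX2, read from the bait chr9:126768067-126775500 on the plus strand, had its contacts upstream across DENND1A, an endocytic regulator. There were 29 such PIRs in merged ESCs and 19 in merged NECs, of which 11 were in both, and the replicates called 16 and 10 in each cell type. The adjoining intronic fragments chr9:126304292-126306022 and chr9:126306023-126311869, at 463 to 467 kb, were called in all 4 replicates, the second with the highest NEC score of LHX2, 26.4 against 18.5 in ESCs. The highest ESC score was within LHX2 itself, 21.6 at chr9:126776713-126786584, with 16.1 in NECs, and the 2 ESC-only PIRs were over introns of CRB2 (15.8) and DENND1A (14.98).

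DENND1A had 51.7 ± 0.871 CPM in NECs and 33.7 ± 4.28 CPM in ESCs and was not called. CRB2, a polarity protein gene whose bait 656 kb upstream was an LHX2 PIR in merged NECs only (12.6, in no replicate list), rose 27.0-fold (log2 change 4.76, SE 0.24, edgeR adjusted p = 3.6e-05), from 151 and 126 counts to 4245 and 3730. RP11-230L22.4, whose bait was an LHX2 PIR in merged ESCs (12.5), had no count in any library. In the LHX2 bait the non-coding RP11-85O21.2 had 0 and 1 counts in ESCs and 2 and 6 in NECs, and RP11-85O21.4 had none.

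OTX2, starting at chr14:57277197 on the minus strand in the bait chr14:57276161-57280069, kept 1 of its merged PIRs, chr14:57281845-57284532 at 5.1 kb, scoring 16.7 in ESCs and 13.7 in NECs. The intergenic fragment chr14:57360700-57365444, 85.0 kb upstream, was an ESC-only contact (16.1). The highest NEC score, 16.5, was at chr14:57528952-57530783, 252 kb upstream, which was called in both NEC replicates and also in ESC replicate 1. No OTX2 PIR was called in all 4 replicates. The non-coding RP11-1077A2.1, which starts in the OTX2 bait, had 4 and 1 counts in ESCs and 9 and 0 in NECs.

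OTX1, starting at chr2:63277192 on the plus strand in the bait chr2:63276074-63280297, had its highest score in both cell types at chr2:62684845-62686686, an intergenic fragment 592 kb upstream, 15.6 in ESCs and 15.4 in NECs. It was called in both ESC replicates and in NEC replicate 1. The bait of CCT4 and COMMD1, a chaperonin subunit gene and a COMM domain gene, 1159.6 kb upstream, was a PIR in merged NECs (13.2), and neither gene was called in the expression test. RAX had its single PIRs at 114 kb in merged ESCs (13.0) and 121 kb in merged NECs (15.3), in adjoining intergenic fragments of chromosome 18. FEZF2 had 10 PIRs, each in a single replicate list, and RP11-204J18.3, which starts in its bait, had 249 and 411 counts in ESCs and 174 and 260 in NECs and was not called.

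**Figure D5:**
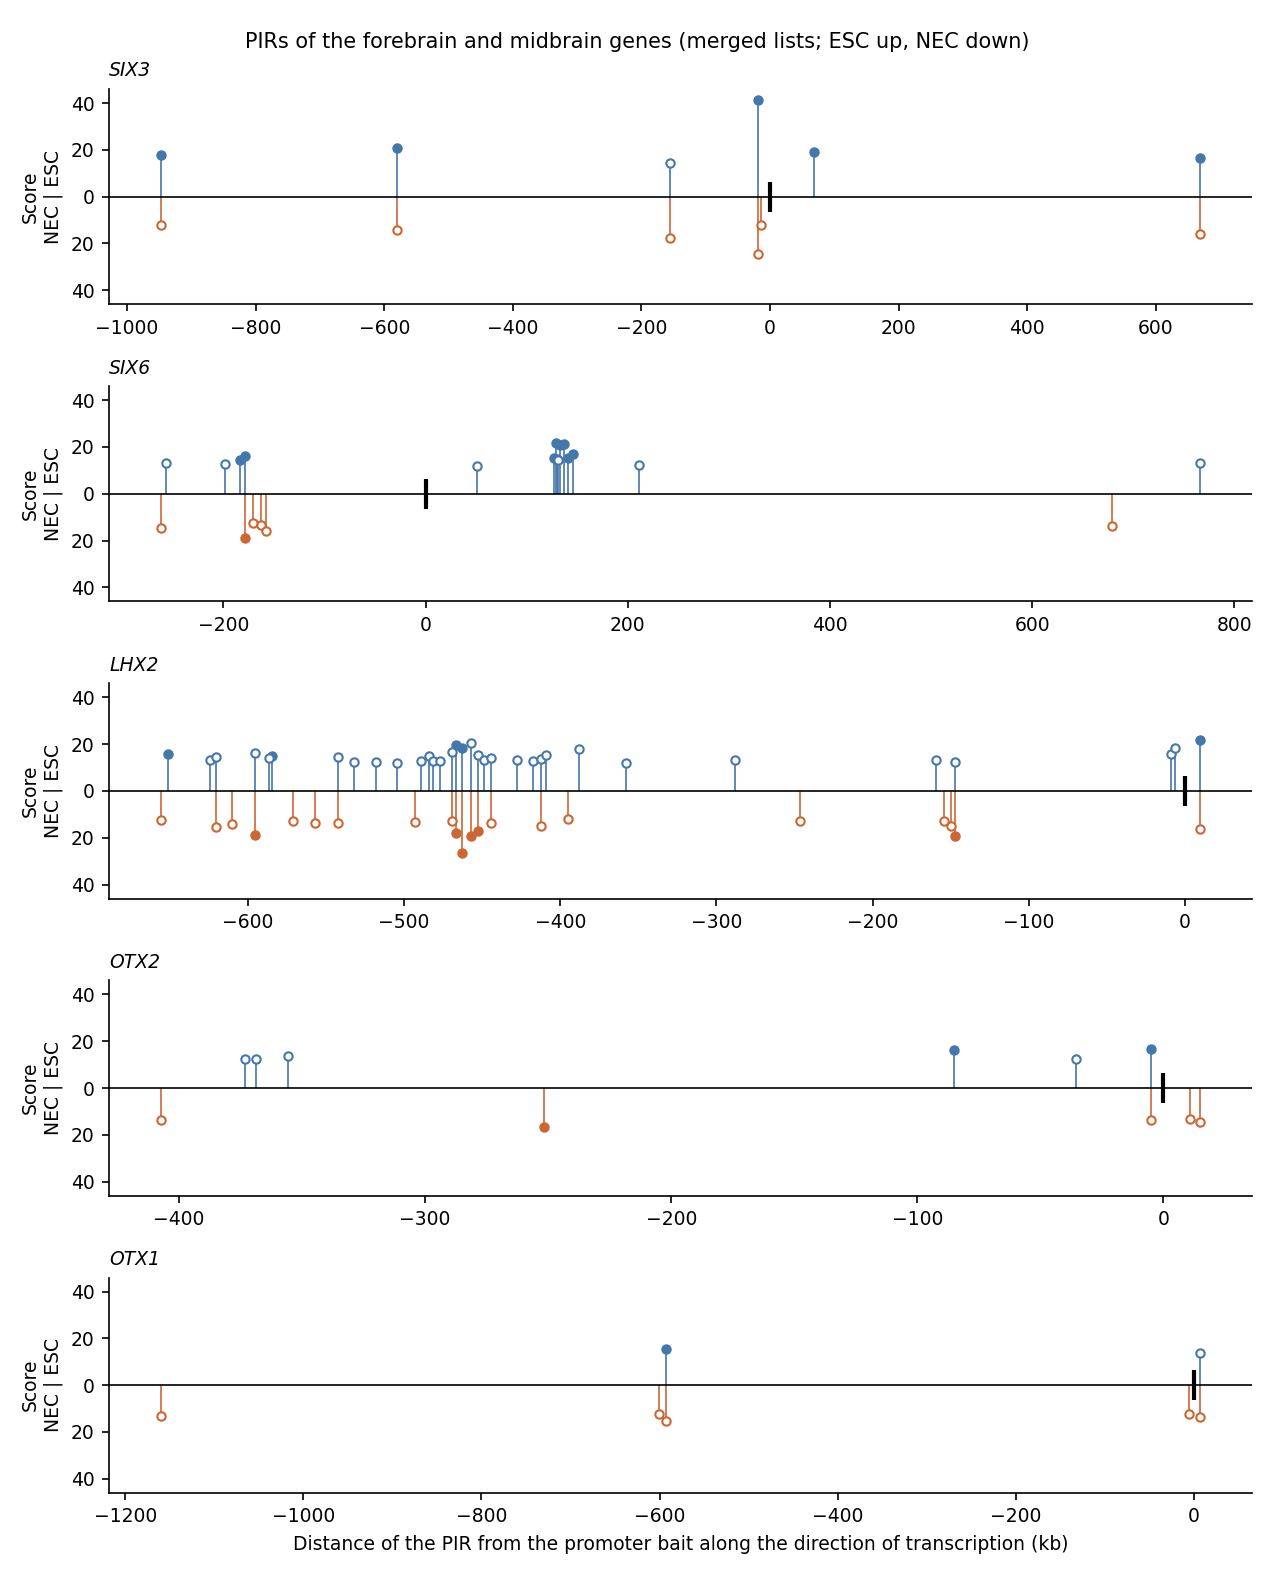
CHiCAGO scores of the merged PIRs of SIX3, SIX6, LHX2, OTX2 and OTX1 against distance from the bait along the direction of transcription (kb), drawn as for the boundary genes, with ESC scores upward and NEC scores downward. SIX6 has 15 ESC and 6 NEC PIRs, and of the LHX2 PIRs across DENND1A (29 ESC, 19 NEC) 11 are in both cell types.

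Of the 182 member PIRs in a merged list, 85 were intergenic, 53 lay in introns and 44 held an exon of a protein-coding gene, by GENCODE lifted to GRCh37, and 23 were themselves baits. The cis-regulatory unit, the stretch between the outermost ends of a bait and its PIRs, spanned a median of 601 kb in merged ESCs and 838 kb in merged NECs over the 7 of 8 promoters found by the count table start that had a PIR. It was widest at EN2, 2788 kb in ESCs and 2106 kb in NECs, and was 394 and 412 kb at GBX2. These spans rest on single outermost fragments and moved with the replicate used.

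Set side by side, expression and contact numbers took several forms. EN1, EN2, SIX3, LHX2 and OTX1 rose with overlapping PIR numbers, and FEZF2 and RAX rose with hardly any PIR in either cell type. OTX2, lower in NECs but short of the size threshold, also had overlapping PIR numbers. GBX2 rose and had more PIRs in both NEC replicates, and SIX6, too low to test, had fewer PIRs in both NEC replicates. Both differences in PIR number came at the rate of all baits. The 10 promoters are too few and too unlike in bait length, from 3566 to 26724 bases, for a relation to be read from them.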

How the data were processed

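RNA sequencing and PCHi-C of 2 ESC and 2 NEC samples each were used, and the conventional Hi-C samples were not analysed here. Per the labels and the study's methods, the authors trimmed the RNA reads, aligned them with TopHat2 2.0.8b (Bowtie 1.0.0) to GRCh37 and deposited raw counts per gene from SeqMonk, the library kit not marking strand. For PCHi-C the authors processed HindIII libraries to bait and fragment pairs and deposited CHiCAGO scores of at least 12, per replicate and merged, without read depths. Counts were tested with edgeR 4.0.16 in R 4.3.3 (filterByExpr with a minimum of 10 counts, TMM, quasi-likelihood F-test, prior count 0.125, Benjamini-Hochberg over 17564 genes), with DESeq2 1.42.0 as an alternative. On simulated counts of 17221 genes for this comparison, the test recovered 100 of 100 genes changed by a log2 of 4. It recovered 89 of 100 changed by a log2 of 2, with 3 false calls. The simulation drew counts with the average spread of genes of like level. It was not set to the spread between the NEC libraries of genes such as RAX, EN1 and EN2, so it gives no error rate for them. Annotation was GENCODE lifted to GRCh37.

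The members and the gene lists were chosen with earlier results of these data known. Named genes were all members, the highest, all-replicate and single-cell-type PIRs of each promoter, other gene starts in the bait, up to 3 genes starting in PIR baits, the largest called rise and fall of each patterning list among genes whose average log2 CPM was not below 0, and standard markers. RBM33, INSIG2, CNPY1, DENND1A, AGAP1 and C14orf39, and the blocks of PIRs, were described after their values were seen. Intervals cover counting error only. Alternatives were other scalings, filters, DESeq2, the replicate number as a block, each replicate left out, a score of at least 15, fragment merging within 10 kb and other baits. Some genes and sequences that these rules would name are not reported here.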

Additional observations from a re-analysis of the deposited data

How the results depend on the processing

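Under the replicate block, in which same-numbered samples are paired, 8 members were called higher and 0 lower, as without it; the correlation of replicate deviations was 0.049, so the numbers do not pair the samples, and no call of a member changed. Over the other settings 7 to 9 members were called higher, RAX being the member lost and SIX6 the one added. The count called lower was 0, became 1 with no fold change threshold, and ranged from 0 to 1 with a replicate left out (1 without ESC replicate 2 or NEC replicate 1), OTX2 being that gene. RAX was at 4.38 with DESeq2 unshrunken and 1.21 shrunken, both not called. For the 8 promoters found by the count table start, the 77 merged ESC PIRs became 39 at a score of at least 15, 147 with baits of any annotated transcript, LHX2 and SIX6 included, 36 with PIRs within 10 kb counted as 1, and 49 (without ESC replicate 1) to 78 with 1 ESC replicate left out. The 82 merged NEC PIRs became 37, 125 and 33 in the same order, and 57 to 98 with 1 NEC replicate left out. Their 10 all-replicate PIRs became 4 at a score of at least 15 and 24 with PIRs within 10 kb shared, and 11 to 20 with a replicate left out (20 without NEC replicate 2). Their 3 NEC-only PIRs became 0 when limited to the highest of 5 equal groups by merged score and 1 with PIRs within 10 kb shared, and 3 to 52 with a replicate left out (5 without ESC replicate 1, 27 without NEC replicate 1, 52 without NEC replicate 2). Their 7 ESC-only PIRs became 4 and 3 in the same order, and 9 to 33 with a replicate left out (21 without ESC replicate 1, 33 without ESC replicate 2). The median span was 601 kb in merged ESCs and 1070.4 to 1324.3 kb with either ESC replicate left out, and 838 kb in merged NECs and 758.06 to 1393.6 kb with a NEC replicate left out (1393.6 without NEC replicate 2). With a replicate left out, fewer lists had to hold a call for the all-replicate, NEC-only and ESC-only PIRs. The merged PIR numbers and spans were then replaced by those of the other replicate's own list. For the other alternatives the cause was not tested.

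Depth limits SIX6, which was too low to test, and RAX, EN1, EN2 and FEZF2, whose values rest on few or no ESC reads. The PCHi-C files give no read depth, so an uncalled contact was below the score threshold and not shown absent, and neighbouring PIRs of 1 promoter are not independent. Each cell type had 2 replicates from 1 line.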
